A study of Mus musculus with 2 samples.

Results

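Of 20807 protein-coding genes of GENCODE M21 on mouse chromosomes 1 to 19, 9822 had a CpG-rich promoter, and 108 of those lacked a DNase-seq peak in whole embryos of 11 days. A promoter was CpG-rich when the ratio of observed to expected CpG dinucleotides (number of CpG x length / (number of C x number of G)) was at least 0.6 within 500 bp of the gene's 5'-most transcription start site (TSS). A gene lacked a peak when no peak of either replicate came within 500 bp of any of its TSSs. The 108 genes were therefore chosen by the peak lists described here, and their lack of peaks is a description of how they were picked. They were 1.1% of the CpG-rich genes, whereas 26.2% of all protein-coding genes on these chromosomes lacked a peak. A peak in both replicates was present at 9695 CpG-rich genes, and 19 had one in a single replicate.

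The study has 1 group and no contrast: whole embryos of the B6NCrl strain, aged 11 days, healthy, with males and females pooled, and no treatment or allele in the labels. The 2 biological replicates carry separate biosample entries and a shared donor entry, and nothing in the labels says how many embryos went into a pool or how they were dissected. Each replicate has a list of 150 bp peaks with a score, a whole number from 1 to 150, and a list of broader hotspots with the −log10 of a q value. The lists hold 204697 and 231103 peaks, and 179603 and 197152 hotspots. No read totals accompany the lists. The depth behind any promoter is thus unknown, and a promoter without a peak means one at which nothing was called. In a whole embryo, accessibility in a small share of the cells cannot be told apart from weak accessibility in many. As a check of the tissue, all 15 listed regulators and products of embryonic tissues, among them Pax6, Sox10, Myod1 and Hnf4a, had a promoter peak in both replicates. No decidual or trophoblast marker of 10 had one, and of 9 blood markers 1 did, the erythroid factor Klf1. None of these 10 and 9 genes had a CpG-rich promoter, whereas 7 of the 15 embryonic genes did, so the lists differ in promoter type. The other 8 of the 15 were not CpG-rich and also had a peak in both replicates.

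DNase I cuts DNA where nucleosomes are displaced, and promoters rich in CpG are in general kept free of DNA methylation and open across tissues, whether or not the gene is highly transcribed. Germline genes are a known exception in the mouse: many have CpG-rich promoters that carry DNA methylation in somatic tissues. A sequence that occurs several times in the genome poses a separate problem to any short-read assay, since its reads cannot be placed. Germline genes and genes in sequence that occurs several times were both found among the 108. Neither DNA methylation nor the placing of reads was measured here, and their part was not tested. To describe repetition, every window of 32 bases (32-mer) within 500 bp of a start was looked up in the whole GRCm38 assembly on both strands. The percentage found once is called the unique share here.

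The 150 bases before the 5'-most TSS are printed for promoters that stand for the main kinds of gene, 5' to 3' in the direction of transcription, with every CG in capitals (GRCm38, mm10). The first 3 belong to meiotic or testis genes without a peak: Slc25a31 (chr3:40708705-40708854, plus strand), D1Pas1 (chr1:186967266-186967415, plus strand) and Tex12 (chr9:50561326-50561475, minus strand). They hold 14, 6 and 11 CpG.
Slc25a31: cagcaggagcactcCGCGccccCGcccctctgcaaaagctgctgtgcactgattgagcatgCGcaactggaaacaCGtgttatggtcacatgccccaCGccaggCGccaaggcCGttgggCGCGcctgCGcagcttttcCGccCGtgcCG
D1Pas1: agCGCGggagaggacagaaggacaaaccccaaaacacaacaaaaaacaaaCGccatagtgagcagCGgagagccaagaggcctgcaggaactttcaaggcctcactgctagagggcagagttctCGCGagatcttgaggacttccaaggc
Tex12: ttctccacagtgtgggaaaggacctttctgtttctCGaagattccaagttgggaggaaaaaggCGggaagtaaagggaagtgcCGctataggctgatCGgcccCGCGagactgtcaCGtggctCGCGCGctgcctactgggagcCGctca
Rbm46 (chr3:82876484-82876633, minus strand) and Tdrd5 (chr1:156303665-156303814, minus strand) are germline genes of the same list that did have a peak in both replicates, and their 150 bases hold 13 and 15 CpG. Boll, also picked as a contrast with a peak in both replicates but not printed, holds 28 CpG in its 150 bases.
Rbm46: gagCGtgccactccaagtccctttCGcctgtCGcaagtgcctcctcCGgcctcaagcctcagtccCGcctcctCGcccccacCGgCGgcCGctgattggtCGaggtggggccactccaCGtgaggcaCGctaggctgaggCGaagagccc
Tdrd5: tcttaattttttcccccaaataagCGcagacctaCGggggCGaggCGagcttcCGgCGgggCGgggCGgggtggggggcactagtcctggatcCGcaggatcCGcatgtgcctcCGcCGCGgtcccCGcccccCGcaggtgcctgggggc
Hoxa11 (chr6:52245811-52245960, minus strand) shows a developmental gene with an annotated start just beyond the reach of its nearest peak, and Hist1h2aa (chr13:23934312-23934461, plus strand) a testis histone gene with the fewest CpG of those printed, 3.
Hoxa11: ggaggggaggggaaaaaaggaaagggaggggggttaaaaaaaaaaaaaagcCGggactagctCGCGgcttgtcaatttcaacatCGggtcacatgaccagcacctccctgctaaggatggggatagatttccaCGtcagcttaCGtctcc
Hist1h2aa: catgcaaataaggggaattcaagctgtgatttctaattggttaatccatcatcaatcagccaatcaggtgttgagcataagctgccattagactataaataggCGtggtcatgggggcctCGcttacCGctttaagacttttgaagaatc
The last 3, picked after their values were seen, show sequence that occurs more than once: the histone genes Hist1h2bq (chr13:21810198-21810347, minus strand) and Hist1h2br (chr13:21833593-21833742, plus strand), and the predicted gene Gm10719 (chr9:3017258-3017407, plus strand). Shifted by 2 bases, the histone sequences were identical at 148 of 148 positions.
Hist1h2bq: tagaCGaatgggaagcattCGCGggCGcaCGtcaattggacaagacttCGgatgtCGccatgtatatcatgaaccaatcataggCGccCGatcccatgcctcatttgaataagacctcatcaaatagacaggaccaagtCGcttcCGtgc
Hist1h2br: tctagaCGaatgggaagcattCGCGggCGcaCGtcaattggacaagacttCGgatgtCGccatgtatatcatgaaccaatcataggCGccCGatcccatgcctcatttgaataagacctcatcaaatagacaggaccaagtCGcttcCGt
Gm10719: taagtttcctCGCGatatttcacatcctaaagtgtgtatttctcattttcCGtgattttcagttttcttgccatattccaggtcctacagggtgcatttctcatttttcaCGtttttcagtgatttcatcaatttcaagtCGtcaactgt

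The 108 promoters were at the low end of CpG richness. Their CpG ratio had a median of 0.69, from 0.60 to 1.00, against 0.78 for the CpG-rich genes with a peak in both replicates, and they held a median of 55 CpG against 72. Their GC content was 56.0% against 61.2%. Since the ratio is part of how they were chosen, the share without a peak was also taken by stratum: it was 3.26% (36 of 1103 genes) at ratios of 0.6 to 0.65, 0.659% (10 of 1517) at 0.75 to 0.8 and 0.325% (6 of 1845) at 0.9 and over. The genes nearest the threshold of 0.6 were Mov10l1, at 0.602, and on the other side Gm13290, at 0.598 and also without a peak.

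Most of the 108 lay in sequence that is not unique. The median unique share was 6.96%, against 100% for CpG-rich genes with a peak in both replicates, and 63 of 108 (58.3%) had under 50% unique 32-mers against 63 of 9695 genes with peaks. Among CpG-rich genes with a unique share of at most 10%, 55 of 58 had no peak, and among those with 100% unique 32-mers 15 of 6809 had none (0.220%). The 3 exceptions at the low end, Trim7, Ermard and Tuft1, had their peaks at other annotated starts than the 5'-most one, around which the unique share was taken. From the 5'-most start the nearest peaks lay 736 and 716 bp away at Trim7, 19323 and 24648 bp at Ermard, and 627 and 544 bp at Tuft1, in replicates 1 and 2. None of the 58 genes, then, had a peak within 500 bp of its 5'-most start.

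**Figure D1:**
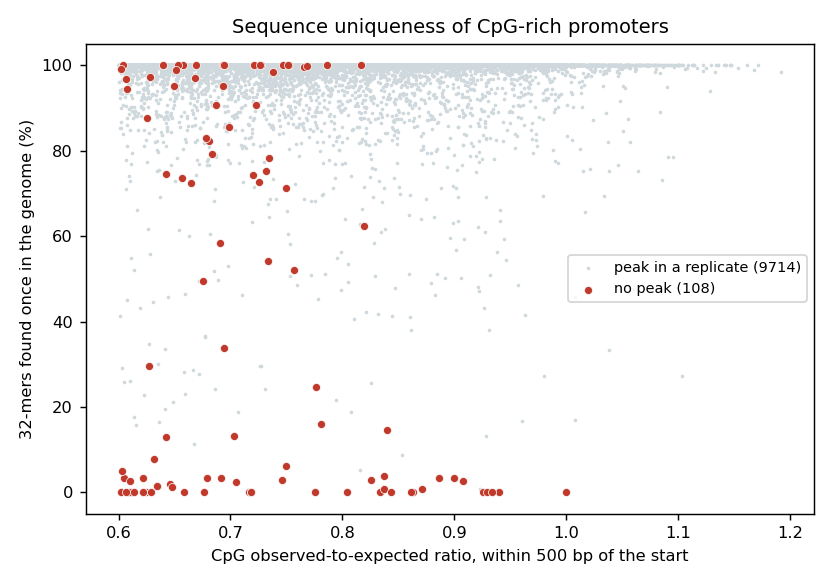
CpG ratio (x axis) and percentage of 32-mers found once in the genome (y axis) within 500 bp of the start, for 9822 CpG-rich genes. Of the 108 genes without a peak (red), 55 lie at 10% unique or less, at ratios from 0.60 to 1.00. Of the rest, 8 lie over 10% to 50%, 17 over 50% to 90% and 28 higher, at ratios up to 0.84.

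The deposited peaks as a whole showed the same property. Of 199526 peaks of replicate 1 on chromosomes 1 to 19, 11 had under 10% unique 32-mers (0.00551%), and of 225212 peaks of replicate 2, 14 did (0.00622%). Windows of equal length placed 1 kb further on had it in 1.25% of cases in either replicate. How reads with several matching places were treated is not stated, and its part in the missing peaks was not tested. Between these extremes, 8 of 71 CpG-rich genes with a unique share over 10% and up to 50% had no peak (11.3%), so most genes of that kind did have a peak near a TSS. The 63 members with under 50% unique 32-mers comprise these 8 and the 55, and are called promoters in repeated sequence here.

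**Figure D2:**
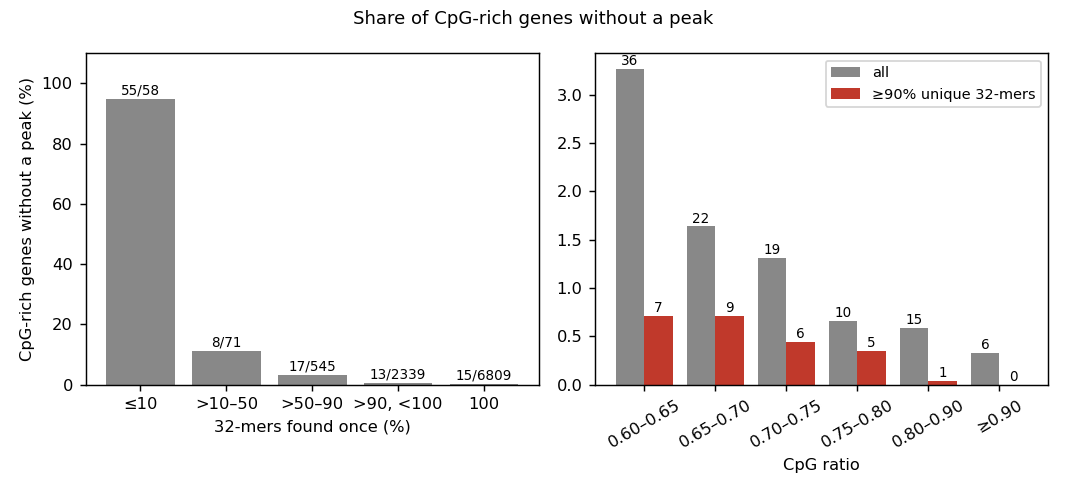
Percentage of CpG-rich genes without a peak (bars, from 0) by unique share (left, with the number of genes without a peak over all genes) and by CpG ratio (right, with the number without a peak, for all genes in grey and for genes with at least 90% unique 32-mers in red). The left panel falls from 94.8% to 0.220%, and among genes with at least 90% unique 32-mers the right panel falls from 0.714% to 0%.

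The 63 promoters in repeated sequence formed families. In 50 of them at least 50% of the 32-mers were shared with another of the 63, which gave 18 families of 2 to 8 genes, each on a single chromosome. The largest was a row of 8 intronless predicted genes on chromosome 4 (Gm13272, Gm13275 to Gm13279, Gm13287 and Gm13289), whose 32-mers had a median of 14 copies in the genome and whose annotation has no 5' UTR. Chromosome 14 held 17 of the 63, in duplicated blocks that include Entpd4 and Entpd4b, which encode a nucleoside diphosphatase, and Slc25a37, the mitochondrial iron importer of erythroid cells, with its copy Gm16867. Entpd4 had 75 CpG and a ratio of 0.80, with no unique 32-mer at all, and its nearest peaks lay 87789 and 87729 bp away. Loxl2, singled out after its values were seen, encodes a lysyl oxidase of the extracellular matrix. It also had a unique share of 0%, and its nearest peaks lay 87678 and 87158 bp away. On chromosome 12, Fam177a and 1700047I17Rik2 formed a pair with ratios of 0.863 and 0.861, and Srp54b and Srp54c, which encode a subunit of the signal recognition particle, shared their sequence with Srp54a.

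Replication-dependent histone genes, which are expressed in S phase in every dividing cell, gave the members richest in CpG. Hist2h3c1 and Hist2h3c2, a pair of histone H3 genes on chromosome 3, held 105 and 104 CpG, and Hist1h2ao, Hist1h2ap, Hist1h2bq and Hist1h2br on chromosome 13 had ratios of 0.93 to 0.94. Of 64 CpG-rich genes with a histone cluster name, 54 had a peak in both replicates, with best promoter scores of 83 to 136 (replicate 1) and 85 to 141 (replicate 2). The other 10 had none (15.6%, against 1.1% of all CpG-rich genes), and 8 of these 10 had unique shares of 0% to 3.81%. Among the 54 with peaks the median unique share was 64.8%, and 42 of 54 had at least 50% unique 32-mers.

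A further set had few CpG in number and low GC content. A row of 8 predicted genes near the start of chromosome 9, among them Gm10715, Gm10718, Gm10719 and Gm17535, had 18 to 23 CpG, a GC content of 34.5% to 35.4% and repeat-masked bases over 93.6% to 99.2% of the window. Copied onto itself, the window matched best at a shift of 234 bp in 7 of the 108 promoters, with 58.3% to 90% of bases identical, and 6 of the 7 were in this set. A unit of that length is known from the major satellite of mouse centromeres. BC107364, which had the highest ratio of all 108 (1.00, with 81 CpG), lay on chromosome 3 and had 0% unique 32-mers. The t-complex gene Tcte3 (ratio 0.871) was in a family of 5 on chromosome 17, 3 of which (Gm3417, 9030025P20Rik and Gm3435) also shared sequence with the promoter of Ermard. Tcte3 and Gm3448 start beside Ermard, and their windows overlap its own.

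Beyond these, 45 of the 108 promoters had at least 50% unique 32-mers, 28 had at least 90% and 15 had 100%. The 45 were 0.464% of the 9693 CpG-rich genes with at least 50% unique 32-mers. Of genes with a unique share over 50% and up to 90%, 17 of 545 had no peak (3.12%). Over 90% and under 100%, 13 of 2339 had none (0.556%). The 45 are called members with unique promoters here, although those 17 lie partly in sequence that is not unique. The groups described next are parts of these 45: 11 genes of a meiosis and piRNA list, 6 clustered protocadherins, 4 homeobox genes, 2 testis histone genes and 22 others. Their nearest peak lay at a median of 4991 bp in replicate 1 and 4943 bp in replicate 2, from 521 to 140665 bp in each. These nearest peaks scored 34 and 40 in the median, below the medians of all peaks in their lists, 45 and 50. In 12 of the 45 the nearest peak lay in the body of the same gene in replicate 1, and in 12 in replicate 2. In 7 and 9 it lay within 500 bp of another gene's start.

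The replicates gave similar distances for most of the 108. The distance to the nearest peak was equal in both for 42 genes and differed by at most 100 bp for 70, while it differed by over 10 kb for 13. Over all 108 it had a median of 11844 bp in replicate 1 and 13160 bp in replicate 2, and for the 63 in repeated sequence 27947 and 28629 bp. No peak of either list lay within 50 kb to either side of 25 starts, 24 of which were in repeated sequence. The median promoter had 6 peaks in that span in each replicate, against 14 and 15 for CpG-rich genes with peaks. For the 28 promoters with at least 90% unique 32-mers the medians were 13.5 and 12. The span includes the 500 bp to each side of the start, where the rule allows members no peak. Part of the gap to genes with peaks is therefore set by the rule.

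**Figure D3:**
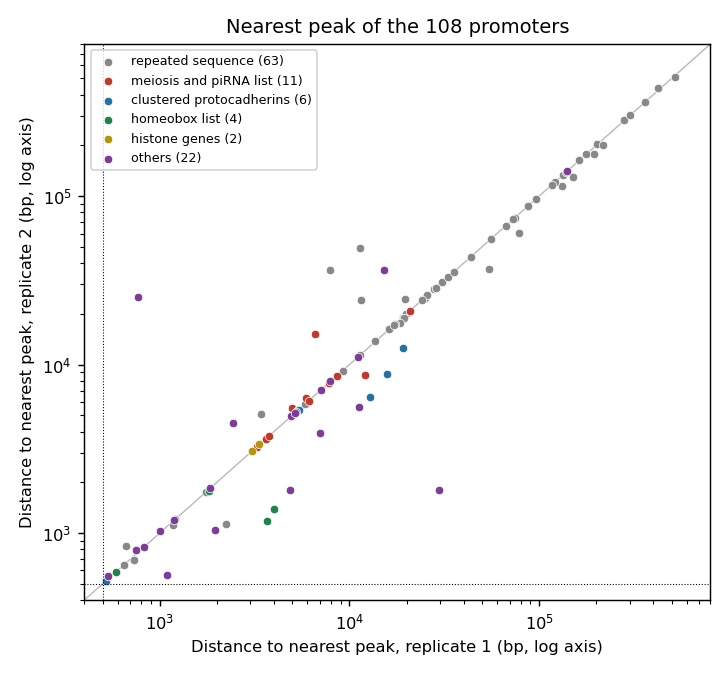
Distance from the nearest TSS to the nearest peak in replicate 1 (x axis) and replicate 2 (y axis), in bp on log axes, for the 108 genes by kind, with the 500 bp limit dotted and the line of equal distances in grey. Promoters in repeated sequence (grey) reach 519982 and 511262 bp, whereas the meiosis and piRNA genes (red) lie between 3232 and 20870 bp.

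Genes of a list for meiosis and the piRNA pathway, which silences transposons in germ cells, were the largest named group with unique promoters. Of 37 CpG-rich genes on the list, 11 (29.7%) had no peak, 24 had one in both replicates (called open here) and 2 in a single replicate (Hormad1, score 18 in replicate 1, and Stk31, score 30 in replicate 2). Across all CpG-rich genes 1.1% had no peak. The list also holds testis enzymes and testis copies of housekeeping genes. It was chosen with earlier results of these data known, so its share is a description only. The 11 had unique shares from 74.4% to 100%, and 7 of the 11 had 100%.

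By role, 3 encode parts of the synaptonemal complex, which joins homologous chromosomes in meiosis. Sycp1, its transverse filament, had 65 CpG at a ratio of 0.72, and its nearest peak lay 8613 bp away in both replicates, with scores of 25 and 36. Sycp2, of the axial element, had 51 CpG at 0.64 and nearest peaks at 4991 and 5511 bp. Tex12, of the central element, had 53 CpG at 0.67, and its nearest peaks, at 5905 and 6345 bp, lay within 500 bp of starts of Bco2 and Il18. Of the CpG-rich genes on the list with Syc symbols, Sycp3 and Syce2 did have a peak in each replicate. Scores were low at Sycp3, 33 and 26, and higher at Syce2, 94 and 109.

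In the piRNA pathway, Mael had 61 CpG at a ratio of 0.69 and nearest peaks at 6599 and 15289 bp. Mov10l1, an RNA helicase needed to make piRNAs, had 48 CpG at 0.60. Its nearest peak lay 3784 bp away in both replicates, within 500 bp of a start of Mlc1. Fkbp6, a co-chaperone of the pathway, had 60 CpG at 0.77 and nearest peaks at 3272 and 3232 bp, within 500 bp of a start of Trim50. Asz1, a mitochondrial scaffold of the pathway, had 38 CpG at 0.60 and a peak 3629 bp away within its own body in both replicates. Other genes of the pathway were open: Tdrkh had best scores of 143 and 145, Pld6 of 106 and 113 and Tdrd1 of 79 and 63.

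Testis enzymes and copies of housekeeping genes made up the rest of the 11. Slc25a31, the ADP/ATP carrier of male germ cells, had 61 CpG and the most distant peaks of the 11, at 20870 and 20850 bp. D1Pas1, an intronless DEAD-box helicase gene of the testis, had 66 CpG, the most of the 11, and nearest peaks at 7771 and 7751 bp. Naa11 (an acetyltransferase subunit) and Rpl10l (a ribosomal protein), both active in testis and each with a housekeeping relative on the X chromosome, had 46 and 54 CpG, with nearest peaks at 12134 and 8714 bp and at 6096 and 6076 bp. No hotspot came within 500 bp of a TSS of any of the 11 in either replicate.

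**Figure D4:**
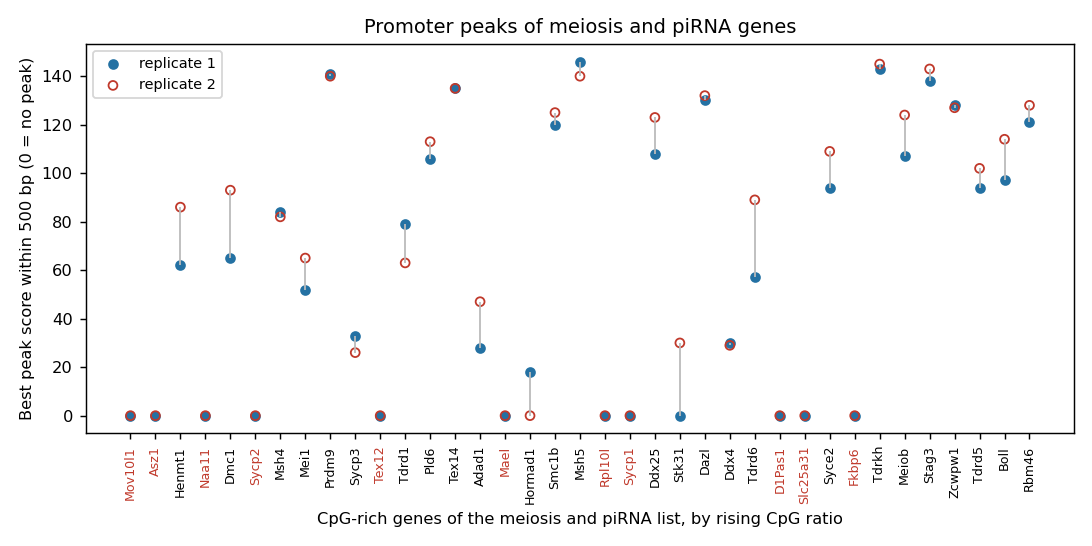
Best peak score within 500 bp of a TSS (y axis, 0 where there is no peak) in replicate 1 (filled) and replicate 2 (open) for the 37 CpG-rich genes of the meiosis and piRNA list, ordered by CpG ratio from 0.60 to 0.93. The 11 genes without a peak (names in red) stand at ratios up to 0.77, mixed with genes that score over 100.

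The 11 were poorer in CpG than their open counterparts, with overlap. Their ratio had a median of 0.69 (0.60 to 0.77) against 0.72 (0.62 to 0.93) for the 24 with peaks, and they held 54 CpG (38 to 66) against 62.5 (42 to 112). Open genes of the list had a median best score of 101.5 in replicate 1 and 113.5 in replicate 2, below the 131 and 135 of all CpG-rich genes with peaks in both replicates. Ddx4, the germ cell RNA helicase, scored 30 and 29, whereas Dazl, an RNA-binding protein of germ cells, scored 130 and 132. Among the other members of the list, 43 were not CpG-rich, and 21 of those had no peak.

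The letters CACGTG, an E-box known to be bound by MAX and its partners, stood within 500 bp of the start of 10 of the 11 genes (90.9%), all but Naa11. They stood in 12 of the 24 open genes of the list (50%), in 11 of the other 34 members with unique promoters (32.4%) and in 22.6% of CpG-rich genes with peaks in both replicates. The matches among the other 34 include all 6 clustered protocadherins, which are related genes of a single cluster. The motif is its own reverse complement, so both strands are covered. In the sequences printed above it occurs once each in Slc25a31, Tex12 and the open Rbm46. A longer form, TCACGTGA, stood in 1 of the 11, in 1 of the 24 and in 2.92% of CpG-rich genes with peaks in both replicates. The letters TCTCGCGA, bound by ZBTB33, stood in 3 of the 11 (D1Pas1, Fkbp6 and Sycp1) against 2 of 24 and 3.91% of CpG-rich genes with peaks, and CCAAT, the NF-Y motif, in 5 of 11 against 19 of 24 and 64.5%. These contrasts were noticed among 12 motifs searched on both strands, on few genes, and a match is a description of the letters.

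Among all 45 members with unique promoters the largest gap for a motif was in CCCCGCCC, the GC box of SP and KLF factors. It stood in 24.4% of the 45 and in 55.7% of CpG-rich genes with peaks. GC content moves with it: with the ratio held under 0.75 and the GC content at 50% to 60%, the shares were 36.4% of 22 and 43.5% of 2074. For CACGTG, 46.7% of the 45 had it, among them 10 of the 11 meiosis and piRNA genes and all 6 clustered protocadherins. In the same stratum the shares were 40.9% against 23.3%, and the protocadherins, with GC content under 50%, fall outside it.

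Testis histones gave a divergent pair. Hist1h2ba and Hist1h2aa on chromosome 13 encode the H2B and H2A variants of testis and start 306 bp apart in opposite directions. They had 49 and 44 CpG at ratios of 0.68 and 0.65, unique shares of 82.4% and 95.1%, and their nearest peak, 3051 and 3357 bp away in both replicates, scored 41 and 37. Other histone genes with a unique sequence had peaks, as given above. The 150 bases printed for Hist1h2aa hold CCAAT 2 times, counting both strands.

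Clustered protocadherins, cell surface proteins of neurons of which each neuron expresses a few by promoter choice, contributed 6 members, all in the alpha cluster on chromosome 18. Of 22 CpG-rich clustered protocadherin genes, 14 had a peak in both replicates and 6 in neither (27.3%). Another 2 had one in replicate 2 only (Pcdha2, score 24, and Pcdha5, score 20). The share without a peak was 1.1% among all CpG-rich genes. By GC content, and with these 6 counted in, it was 34.8% under 45% (16 of 46) and 3.03% at 45% to 50% (8 of 264). Pcdha1, Pcdha4, Pcdha6, Pcdha7, Pcdha8 and Pcdha11 had ratios from 0.67 to 0.75 and 32 to 37 CpG in a GC content of 42.5% to 46.1%, and unique shares from 71.3% to 90.6%. Open alpha genes nearby had low scores: 18 and 28 at Pcdha3, and 14 and 20 at Pcdha9. Pcdhac2, at the far end, scored 91 and 90.

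**Figure D5:**
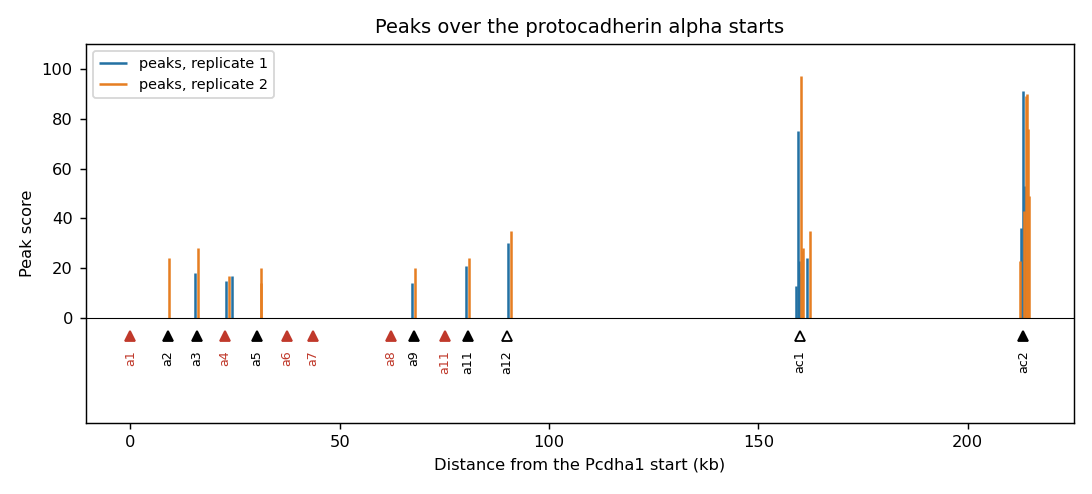
Peak scores (vertical lines, replicate 1 in blue and replicate 2 in orange, offset sideways for sight) along the protocadherin alpha cluster, by distance from the Pcdha1 start in kb, with gene starts as triangles (filled if CpG-rich, red if without a peak, label a1 for Pcdha1 and so on). Scores stay at or under 35 over the first 100 kb and reach 97 at Pcdhac1. The symbol Pcdha11 stands for a pair of gene entries, one of each kind.

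Pcdha4 was the member closest to a peak, 521 bp in both replicates, with scores of 15 and 17, and hotspots reached the edge of its window with −log10 q values of 2.21 and 2.39. That peak lay 455 bp from the nearest start of the overlapping gene Gm42416, just inside the 500 bp limit. The other gene entry named Pcdha11 had peaks of 21 and 24 at its start, 5509 bp downstream. Counted by symbol, Pcdha11 would not be a member and the total would be 107.

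Homeobox genes, the regulators of body axis and limb, were mostly open: of 77 CpG-rich genes on the list, 70 had a peak in both replicates, with median best scores of 98 and 109.5, and 3 in a single replicate. The 4 without one were 5.19% of the 77, a larger share than the 1.1% of all CpG-rich genes. These 4 had 99.0% to 100% unique 32-mers. Hoxa11, which patterns the forearm and the uterus, had 62 CpG at a ratio of 0.73 and a peak 586 bp from its start in both replicates, with scores of 80 and 94. Hoxc11 had 56 CpG at 0.75 and nearest peaks 1829 and 1789 bp away in its own body, with scores of 79 and 90. Hoxc9, of thoracic identity, had 52 CpG at 0.65 and nearest peaks at 4024 and 1394 bp, with scores of 68 and 56. Cdx1, a regulator of Hox genes in the posterior body and later in the gut, had 103 CpG at 0.79 and a unique share of 100%, and its nearest peaks lay at 3697 and 1174 bp, with scores of 79 and 57. Their neighbours were open: Hoxa10 scored 121 and 128, Hoxa13 103 and 113, Hoxc10 108 and 115 and Hoxc8 89 and 91. The nearest peaks of these 4 genes thus scored 68 to 80 in replicate 1 and 56 to 94 in replicate 2.

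The 22 other members with at least 50% unique 32-mers had ratios from 0.61 to 0.82. Several are known from germ cells. Btbd18, a nuclear factor for piRNA precursor transcription in spermatocytes, had 54 CpG and a peak 830 bp away in its own body in both replicates, with scores of 46 and 58. Ankrd31, which acts in meiotic recombination, had 43 CpG and nearest peaks at 1967 and 1044 bp. Pramel1, of the PRAME family expressed in germ cells, had 53 CpG and nearest peaks with high scores, 103 and 125, at 4923 and 4943 bp. Of the 22, only Pramel1, Foxr1, Rimbp3, Sec1, BC048507 and 4933416C03Rik met the rule for naming, and the others named were singled out after their values were seen.

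Among unique promoters with a GC content of at least 50%, 4933416C03Rik had the most CpG after Cdx1: 68, at a ratio of 0.69, with a peak 5187 bp away in both replicates and scores of 37 and 49. Foxr1, a forkhead gene, had 43 CpG and a peak at 5232 bp in both. Sec1, a fucosyltransferase gene, had 60 CpG and nearest peaks at 754 and 794 bp, with scores of 90 and 83. The 3 neighbouring genes Prr23a1, Prr23a2 and Prr23a3 had 61, 48 and 57 CpG and nearest peaks from 1002 to 11058 bp. Sfi1, a centrosome gene with 18 annotated TSSs, had 60 CpG at 0.82 and a peak at 1192 bp in both replicates. Gm21738 had 23 CpG, 84.4% repeat-masked bases and the most distant peaks of the 45, at 140665 bp.

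Rimbp3 stood apart in its hotspots. This intronless gene, which encodes a protein of the spermatid manchette, had 64 CpG at a ratio of 0.77 and 99.9% unique 32-mers. Its nearest peaks lay 533 and 553 bp from the start inside the gene, with scores of 128 and 132, and a hotspot at the ceiling of 100 in −log10 q reached over the start in both replicates. It covered 859 bases of the window around the start in replicate 1. Pcdha4 was the only other of the 108 with a hotspot within 500 bp of a TSS, so that 2 of 108 (1.85%) had one in either replicate. Of all CpG-rich genes, 1.09% had no hotspot in either list.

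The gene models of the 108 were shorter and simpler than those of other CpG-rich genes. A single exon was annotated in 31 (28.7%) against 3.19% of CpG-rich genes with peaks in both replicates, no 5' UTR in 23 (21.3%) against 1.04%, and a single TSS in 55 (50.9%) against 11.8%. Predicted or clone-based names were carried by 45 (41.7%) against 3.65%. Coding sequence filled a median of 20.98% of the window against 4.396%. The 45 with unique promoters kept the single exons (31.1%) and single TSSs (53.3%), but 3 (6.67%) had no 5' UTR and 8 (17.8%) a predicted name. In the stratum of ratios under 0.75 and GC content of 50% to 60%, 8 of 22 unique members had a single exon (36.4%) against 1.88% of 2074 genes with peaks. More annotated TSSs give a gene more places to meet a peak, so the number of TSSs is tied to the rule. With the 5'-most TSS alone, 120 genes had no peak.

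Lists for several other cell types held no member. With 1.1% of all CpG-rich genes lacking a peak, short lists would hold few members or none in any case. All 27 CpG-rich genes for signalling in adult neurons and all 13 of spermatid genes had a peak in both replicates, as did both genes of the oocyte and early embryo list. In the spermatid list, 36 further genes were not CpG-rich, and 22 of those had no peak. In the oocyte and early embryo list, 46 were not CpG-rich, and 42 of those had no peak. Among groups by name, 1 of 15 CpG-rich Tex and Spata genes had no peak (Tex12), 1 of 74 ribosomal protein genes and relatives (Rpl10l) and 1 of 3 genes of oocyte-expressed families (Pramel1). Of 212 CpG-rich genes with zinc finger names, 2 had no peak (0.943%), Zfp433 and Zfp781, each with a unique share of 0%. This share and that of the ribosomal group (1.35%) are near the 1.1% of all CpG-rich genes.

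The limit between members and the rest was thin in places. BC048507 had peaks at 1090 and 561 bp and was a member, and so was Mterf1b, at 649 bp in both replicates. Oaz3, with peaks 448 bp away in both, and Gm42416, at 455 bp, were not. Of the 19 CpG-rich genes with a peak in 1 replicate, 15 had it in replicate 2, the longer list, and 4 in replicate 1. Developmental regulators were among the 15, such as Ptf1a (593 and 38 bp), Nkx2-2 (1772 and 0 bp), Gsx2 (4094 and 0 bp) and Wnt3a (2984 and 7 bp), and Cdx2 (305 and 2105 bp) was among the 4. Taken alone, replicate 1 had 123 CpG-rich genes without a peak and replicate 2 had 112.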

How the data were processed

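DNase-seq peak and hotspot lists of 2 biological replicates of 1 group were used. Per the file headers and accompanying text, the authors called each list on a single replicate, starting at filtered alignments to mm10. Replicates were not pooled. They carry separate biosample entries and a shared donor entry, and nothing further says how they differ. Neither aligner nor caller is given in the sources used here, nor how reads were filtered. The deposited peak score is a whole number from 1 to 150 of unstated construction, used within a list only. Deposited hotspots carry the −log10 of a q value as their file format defines it, from 1.3 to a ceiling of 100.

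From these, distances from every TSS to the nearest base of a peak were computed with Python 3.11.15, numpy 2.4.6 and pandas 2.3.3, on GRCm38 and GENCODE M21. Genes were counted by identifier. Uniqueness counted 32-mers on both strands over chromosomes and unplaced contigs. The counting was tested on simulated sequence and the distances on simulated intervals. No p-value was computed, since the rule uses the peaks and no contrast exists. Shares are over genes and cover no sampling error between embryos. The members and lists were chosen with earlier results of these data known. Named genes were the 10 members with most CpG or the highest ratio; among unique promoters with GC of at least 50% the 10 with most CpG, farthest from peaks or with hotspots; up to 8 members a list and 5 a name pattern by CpG number; and 5 genes to each side of the thresholds. Asz1, Naa11, Hist1h2ba, Pcdha11, Loxl2 and the genes named from families in repeated sequence met no part of this rule and were added after their values were seen, as were those marked in the text. Printed sequences lie before the TSS, in place of the planned window around it.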

Additional observations from a re-analysis of the deposited data

How the results depend on the processing

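The number of CpG-rich genes without a peak (108) stayed within 1.5 times under 12 alternatives and when genes were joined by symbol, from 84 to 151. It was 171 with a CpG ratio of at least 0.5 and 31 with at least 0.75, and, in alternatives added after seeing the data, 45 with only promoters of at least 50% unique 32-mers and 28 with at least 90%. The share of CpG-rich genes without a peak (1.1%) became 1.48% with peaks counted within 250 bp, 0.855% within 2500 bp, 1.54% with the better-scoring 50% of each list, 1.502% and 0.523% with ratios of at least 0.5 and 0.75, and 0.883% with a GC content of at least 50% as well. The share of members with under 50% unique 32-mers (58.3%) was 46.2% with peaks within 250 bp and 74.2% with a ratio of at least 0.75, and it was 74.1% with the threshold at 90% unique. Without replicate 1 or 2 the 3 values ran from 112 to 123 genes, from 1.14% to 1.25% and from 53.7% to 56.3%. Each of these single-replicate sets held all 108 genes, which the rule fixes in advance, since a member has no peak in either list. With hotspots in place of peaks 106 of 107 genes were members, but hotspots were called on the same replicates and are no independent check. The share with a hotspot near a TSS (1.85%) moved most, up to 29.1% with the better-scoring 50% of each list. No paired analysis was possible because there is 1 group and no test. Depth is unknown, so no floor can be given for a promoter without a peak.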
